A study of Mus musculus with 8 samples.

Results

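Immediate early genes are switched on within minutes of neuronal depolarisation or growth factor signalling, without the need for newly made protein. Calcium and kinase cascades act on transcription factors that are already present, such as SRF and CREB, and the genes switched on mostly encode further transcription factors. The Egr genes encode zinc finger factors that bind GC-rich sites. The Nr4a genes encode orphan nuclear receptors, and Fos and JunB pair as the AP-1 factor. Arc encodes a protein of dendrites and synapses that acts in the removal of AMPA receptors. In the striatum these genes are widely used as a readout of cortical and dopaminergic input, and Nr4a1 also marks striosome neurons during development. The 10 genes described here, chosen by name, are Egr1, Egr2, Egr3, Egr4, Nr4a1, Nr4a2, Nr4a3, Fos, Junb and Arc. All 10 were among the 15705 genes listed and all 10 entered the test.

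The tissue was the lateral ganglionic eminence (LGE) of E18.5 mouse embryos, from which most neurons of the striatum arise, and its polyadenylated RNA was sequenced. The conditional knockout group (cKO) held 4 libraries of genotype Dlx1-Cre; Isl1 flx/flx, in which Cre is driven by Dlx1, a gene of ventral forebrain progenitors and young neurons, and Isl1 is a LIM-homeodomain transcription factor gene. The control group held 4 libraries of littermates of genotype Isl1 flx/flx, so both groups carried the floxed alleles and the cKO group alone carried Cre. Presence of Cre and deletion of Isl1 therefore cannot be told apart. The libraries are described as quadruplicates from separate embryos, and neither litter nor sex is given in the labels.

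The values are read values per gene that the authors had scaled and adjusted and then rounded. Their sum was between 24202515 and 24456923 in the cKO libraries and between 23732455 and 24419880 in the control libraries, and these sums follow from the scaling, so sequencing depth is unknown. Isl1 itself was at 4930, 5377, 5618 and 5971 in the libraries labelled cKO, against 3777, 3692, 4186 and 3517 in those labelled control. All 4 cKO values were the higher ones (log2 fold change 0.53 ± 0.06, limma adjusted p = 0.000338), so the Isl1 transcript was not lost from the libraries labelled cKO. Which exons the floxed alleles delete was not known here and the value covers the whole gene, so it leaves the genotype labels unchecked. All directions below are those of the libraries labelled cKO against those labelled control.

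Most of the immediate early genes were lower in the cKO. Of the 10 genes, 6 fell, none rose and 4 did not pass the test (limma, Benjamini-Hochberg adjusted p under 0.05 over 15698 genes). Those that fell were Egr1, Egr2, Egr3, Egr4, Nr4a1 and Arc. Among all genes tested, 3.78% fell and 2.87% rose. The authors' deposited table had 7 of the 10 fallen, Fos being the addition, against 3.81% of all listed genes. The mean was lower in the cKO for 9 of the 10 genes, the exception being Nr4a2. In 8 of the 10, every cKO library lay below every control library, which held for 6.33% of all genes tested. The median log2 fold change of the 10 genes was -0.68, against 0.0059 over all genes tested. The genes had been chosen with earlier results of these data known, so these counts describe them and are not independent support. In bulk tissue, fewer cells of a type and less RNA per cell cannot be told apart.

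**Figure D1:**
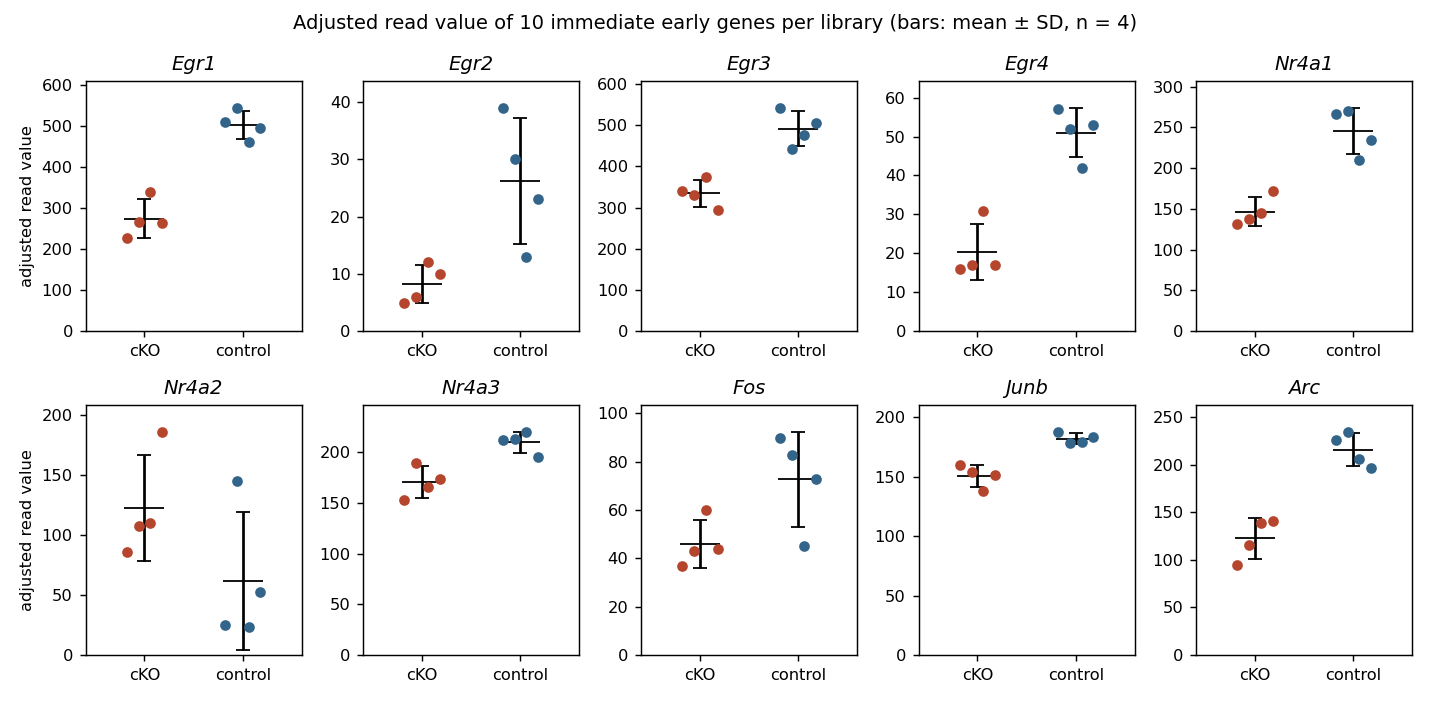
Adjusted read value of each of the 10 genes (vertical axes, each starting at 0) in the 4 cKO and the 4 control libraries; points are libraries and bars are the mean ± SD. The groups are separate for every gene other than Nr4a2 and Fos.

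Among the Egr genes, all 4 fell. Egr1 (chromosome 18, 34859823 to 34864984, plus strand, GRCm38), the most studied neuronal member of the family, had values of 226, 267, 339 and 264 in the cKO libraries, against 510, 544, 462 and 494 in the control libraries. The highest cKO library, replicate 3, remained well below the lowest control library, also numbered 3. The cKO mean was 54.5% of the control mean, and the log2 fold change was -0.89 ± 0.11 (SE), with a limma adjusted p of 0.000364.

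Egr3 (chromosome 14, 70077203 to 70082614, plus strand), which acts in muscle spindle development and in activity-dependent transcription in neurons, had values of 340, 331, 374 and 293 in the cKO, against 542, 443, 477 and 504 in the control. The groups did not overlap, and the cKO mean was 68.1% of the control mean. The log2 fold change was -0.56 ± 0.09 (limma adjusted p = 0.00183), the smallest of the 4 Egr genes in size, and the differences between the 4 were not tested.

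Egr4 (chromosome 6, 85511121 to 85513589, minus strand) was at a low level, with values of 16, 17, 31 and 17 in the cKO, against 57, 52, 42 and 53 in the control. The cKO mean was 39.7% of the control mean. cKO replicate 3 stood apart from the other cKO libraries and was still below every control library. The log2 fold change was -1.33 ± 0.22 (limma adjusted p = 0.00311).

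Egr2 (chromosome 10, 67535475 to 67542188, plus strand), known for hindbrain segmentation and for myelination by Schwann cells, was the lowest of the 10 genes. Its values were 5, 6, 12 and 10 in the cKO, against 39, 30, 13 and 23 in the control. The groups came within 1 unit of each other, at cKO replicate 3 and control replicate 3. The log2 fold change was -1.53 ± 0.36 (limma adjusted p = 0.026), the most negative of the 10 genes. Leaving out control replicate 1, 2 or 4, or cKO replicate 1 or 2, ended the call (adjusted p between 0.0556 and 0.0755), and so did a test with no mean trend (0.0684).

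Windows of 300 bases around annotated transcript starts, from RefSeq on GRCm38.p6, were found for 7 of the 10 genes, and 11 windows in all. Each runs from 250 bases before the start to 50 bases after it. They are shown because the regulators named above read letters of this kind. No window was found for Egr1, Egr3 or Arc, and a part of these regulators in the changes was not tested. Both strands were searched for the serum response factor site (the CArG box), for the full cAMP response element TGACGTCA and its core TGACG (which the full site contains), for the Egr site GCGNGGGCG, for the Nr4a monomer site AAAGGTCA and for the AP-1 site TGANTCA. Matches are in capitals in the sequences below and in those that follow, and a match on the other strand reads in reverse complement, so that TGACG appears as CGTCA. For Egr2, 1 of 5 windows is shown, at a start inside the span given above, chosen after the matches were seen.
Egr2, chr10:67537619-67537918, plus strand: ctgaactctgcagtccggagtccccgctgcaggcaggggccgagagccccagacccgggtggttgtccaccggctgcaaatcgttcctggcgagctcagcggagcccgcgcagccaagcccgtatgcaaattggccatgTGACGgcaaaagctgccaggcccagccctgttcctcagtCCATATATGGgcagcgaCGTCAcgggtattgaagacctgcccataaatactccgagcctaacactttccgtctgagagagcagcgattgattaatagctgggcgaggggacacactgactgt
Egr4, chr6:85513540-85513839, minus strand: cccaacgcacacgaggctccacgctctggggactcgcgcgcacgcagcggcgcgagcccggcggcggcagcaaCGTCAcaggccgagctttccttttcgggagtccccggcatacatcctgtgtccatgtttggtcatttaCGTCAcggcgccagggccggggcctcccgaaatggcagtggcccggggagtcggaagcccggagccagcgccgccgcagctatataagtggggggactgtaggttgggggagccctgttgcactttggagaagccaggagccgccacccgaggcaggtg
The Egr2 window held a CArG box, whose first base lay 72 bases before the start, with a TGACG core on each side of it, at 111 and 55 bases before the start. Of all 32851 windows in the table, 1.63% held a CArG box. Of the other Egr2 windows, the most upstream held no match to any of these motifs, the next held a CArG box without a TGACG core, and the remaining pair largely repeat the window shown. The Egr4 window held 2 cores and no CArG box, and that of Junb, not shown, held 1 core. At least 1 TGACG was present in 20.8% of all windows, and at least 2 in 5.01%. No match to TGACGTCA, AAAGGTCA or TGANTCA was found in any of the 11 windows. Of all windows in the table, 1.79%, 1.51% and 7.81% held one, in that order. All matches given here are matches of letters, and nothing here measured binding.

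Of the 3 Nr4a genes, Nr4a1 alone passed the test. Nr4a1 (chromosome 15, 101254269 to 101274795, plus strand), also called Nur77, was at 132, 138, 145 and 172 in the cKO libraries, against 267, 270, 210 and 235 in the control libraries. No cKO library reached the lowest control value. The cKO mean was 59.8% of the control mean, and the log2 fold change was -0.74 ± 0.11 (limma adjusted p = 0.00152).

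Nr4a3 (chromosome 4, 48045153 to 48086447, plus strand), also called Nor1, had values of 153, 190, 166 and 174 in the cKO, against 212, 213, 220 and 195 in the control. The groups did not overlap, separated by 5 units between cKO replicate 2 and control replicate 4. The cKO mean was 81.3% of the control mean. Its log2 fold change of -0.30 ± 0.09 (95% interval -0.49 to -0.11) did not pass (limma adjusted p = 0.0685, unadjusted p = 0.00537). Leaving out cKO replicate 2 brought it just past the threshold (log2 fold change -0.35, adjusted p = 0.04995).

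Nr4a2 (chromosome 2, 57106830 to 57124003, minus strand), also called Nurr1, is known for the specification of midbrain dopamine neurons and is also expressed in subplate and claustrum. It was at 86, 107, 110 and 186 in the cKO, against 25, 145, 23 and 52 in the control. Control replicate 2 lay above 3 of the 4 cKO libraries, while the other controls lay below all of them. The means stood at 122 ± 43.8 in the cKO and 61.3 ± 57.4 in the control (SD, n = 4 each), and the control SD was 93.7% of its mean. The log2 fold change was 1.33 ± 0.48 (95% interval 0.28 to 2.39), opposite in sign to the other 9 genes, and did not pass (limma adjusted p = 0.149, unadjusted p = 0.0179). Leaving out control replicate 2 gave a log2 fold change of 1.88 that passed (adjusted p = 0.00306). Leaving out the libraries of each group lowest in markers of pallial neurons, control replicate 3 and cKO replicate 4, gave 0.79 (adjusted p = 0.529), and leaving out any 1 library other than control replicate 2 gave values between 1.01 and 1.48 that did not pass.

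The windows of the 3 Nr4a genes are shown together because the fold changes of these genes differed in sign.
Nr4a1, chr15:101266596-101266895, plus strand: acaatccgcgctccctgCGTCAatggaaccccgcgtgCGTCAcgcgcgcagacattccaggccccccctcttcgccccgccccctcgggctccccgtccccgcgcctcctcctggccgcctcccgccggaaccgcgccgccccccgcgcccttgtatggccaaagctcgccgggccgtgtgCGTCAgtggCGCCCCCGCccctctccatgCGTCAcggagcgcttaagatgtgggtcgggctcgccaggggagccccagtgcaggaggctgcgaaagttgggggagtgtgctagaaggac
Nr4a2, chr2:57123954-57124253, minus strand: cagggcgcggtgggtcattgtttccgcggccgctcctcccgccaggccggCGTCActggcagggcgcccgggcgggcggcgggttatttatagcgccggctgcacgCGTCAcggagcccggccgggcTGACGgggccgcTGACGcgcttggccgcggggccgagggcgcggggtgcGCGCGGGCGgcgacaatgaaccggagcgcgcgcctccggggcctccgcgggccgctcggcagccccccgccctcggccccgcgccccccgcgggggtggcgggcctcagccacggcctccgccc
Nr4a3, chr4:48045055-48045354, plus strand: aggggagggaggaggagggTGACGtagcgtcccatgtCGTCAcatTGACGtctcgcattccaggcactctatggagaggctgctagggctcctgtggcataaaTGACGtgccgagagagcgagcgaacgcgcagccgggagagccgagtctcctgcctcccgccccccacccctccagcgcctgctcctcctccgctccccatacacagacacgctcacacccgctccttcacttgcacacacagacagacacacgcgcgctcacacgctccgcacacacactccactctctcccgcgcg
Each of the 3 windows held 4 TGACG cores on either strand, a number reached in 0.231% of all windows. In Nr4a1 the core nearest the start began 40 bases before it, in Nr4a2 111 bases and in Nr4a3 147 bases. An Egr site was also present in Nr4a1, its first base 60 bases before the start, and in Nr4a2, 74 bases before the start, and 5.55% of all windows held one. The GC content of the windows was 72.3% for Nr4a1, 81.7% for Nr4a2 and 64.7% for Nr4a3, against a median of 52.7% over all windows.

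Neither AP-1 gene passed the test. Fos (chromosome 12, 85473890 to 85477273, plus strand) had values of 37, 43, 60 and 44 in the cKO, against 90, 83, 45 and 73 in the control. The groups overlapped because control replicate 3 fell among the cKO values, while the other 3 controls lay above all cKO libraries. The log2 fold change was -0.63 ± 0.22 (95% interval -1.11 to -0.14, limma adjusted p = 0.14, unadjusted p = 0.0161). Without control replicate 3 the log2 fold change was -0.84 and passed (adjusted p = 0.0219). The authors' deposited table also put Fos past the threshold (log2 fold change -0.65, adjusted p = 0.017).
Fos, chr12:85473640-85473939, plus strand: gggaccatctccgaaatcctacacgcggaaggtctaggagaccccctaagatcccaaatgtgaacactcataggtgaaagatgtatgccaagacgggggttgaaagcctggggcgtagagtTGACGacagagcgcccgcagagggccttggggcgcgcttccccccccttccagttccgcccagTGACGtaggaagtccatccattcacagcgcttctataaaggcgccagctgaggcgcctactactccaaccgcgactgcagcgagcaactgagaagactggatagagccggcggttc
This window, shown because Fos is the gene on which cAMP-driven induction is best known, held cores beginning 129 and 66 bases before the start. The CArG box was not among the letters of this window. As the window begins 250 bases before the start, sites further upstream were not searched.

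Junb (chromosome 8, 84974484 to 84978718, minus strand), which encodes a partner of Fos, was at 160, 154, 138 and 151 in the cKO, against 188, 178, 179 and 183 in the control. The groups did not overlap. The cKO mean was 82.8% of the control mean, and the log2 fold change of -0.27 ± 0.08 (95% interval -0.45 to -0.10) did not pass (limma adjusted p = 0.0728, unadjusted p = 0.00587). It passed without the mean trend (adjusted p = 0.0255) and on log2(RPKM + 0.1) values (0.0431). Prdx2, a peroxiredoxin gene with a mean of 15473 in the cKO and 16328 in the control, overlaps Junb on the opposite strand. The strand setting of the counting is not stated in the labels, so the value of Junb is uncertain.

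Arc (chromosome 15, 74669083 to 74672570, minus strand) is the only one of the 10 that encodes no transcription factor. It had values of 95, 116, 139 and 141 in the cKO libraries, against 226, 235, 206 and 197 in the control libraries. The groups were far apart, and the cKO mean was 56.8% of the control mean. The log2 fold change was -0.82 ± 0.13 (limma adjusted p = 0.00199).

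**Figure D2:**
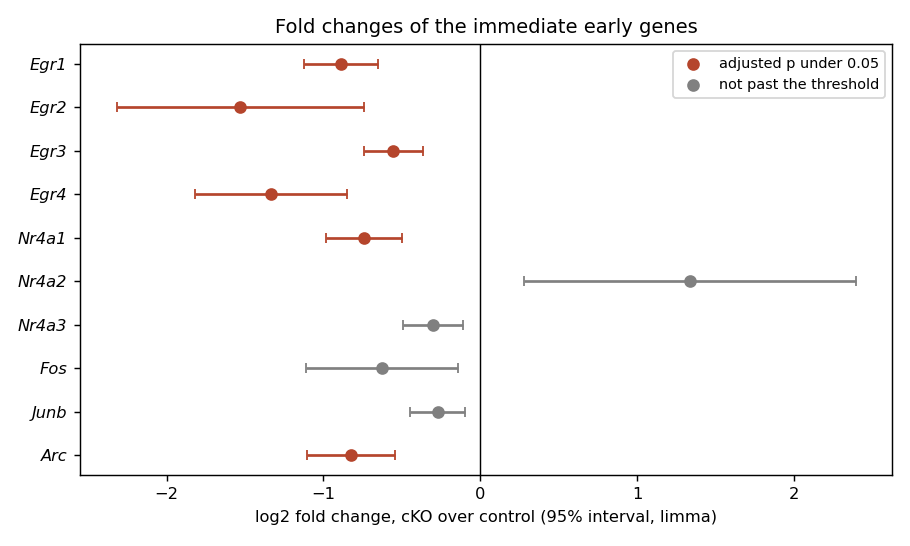
Log2 fold change of each gene, cKO over control (horizontal axis), with its 95% interval from limma; coloured points passed at an adjusted p under 0.05. The 6 coloured genes lie between -1.53 and -0.56, and Nr4a2 alone lies above 0.

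Set against all genes tested, the fold changes lay towards the low end. The share of genes with a lower log2 fold change was 0.535% for Egr2, 0.694% for Egr4, 1.75% for Egr1, 1.93% for Arc and 2.41% for Nr4a1. It was 3.26% for Fos, 3.96% for Egr3, 8.12% for Nr4a3 and 9.04% for Junb. For Nr4a2 it was 99.5%.

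Levels were compared between genes per length, as deposited RPKM (reads per kilobase of gene, scaled to the library total). In the cKO, Egr1 was highest with 3.68 ± 0.637 RPKM (SD, n = 4), then Egr3 with 3.44 ± 0.357 and Junb with 3.38 ± 0.209, and the ranges of these neighbours overlapped. In the control, Egr1 was also highest, with 6.78 ± 0.464 RPKM, and its range did not overlap that of Egr3, with 5.09 ± 0.501. Nr4a1 and Junb followed in the control with 4.11 ± 0.496 and 4.10 ± 0.158 RPKM, which overlapped, whereas in the cKO Nr4a1, with 2.44 ± 0.28 RPKM, lay below every library's value for Junb. Arc ranked number 5 in both groups, with 1.65 ± 0.288 RPKM in the cKO and 2.93 ± 0.238 in the control.

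Lower down, Nr4a2, Nr4a3 and Fos had 1.50 ± 0.529, 1.26 ± 0.113 and 0.905 ± 0.195 RPKM in the cKO, against 0.754 ± 0.699, 1.55 ± 0.0731 and 1.44 ± 0.401 in the control. The ranges of Nr4a2 and Nr4a3 overlapped in the cKO, and so did those of Nr4a3 and Fos in both groups. Egr4 and Egr2 were lowest in the cKO, with 0.398 ± 0.142 and 0.115 ± 0.0458 RPKM, and the control means were 1.01 ± 0.136 and 0.368 ± 0.157. In the control, 46.4% of all listed genes had a lower mean RPKM than Egr1 and 12.9% a lower one than Egr2, so the genes were expressed at middling to low levels in this tissue.

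The same libraries often held the extremes of a group. Among the cKO libraries, replicate 1 was lowest for 8 of the 10 genes, and replicate 3 was highest for 5 of them, namely the 4 Egr genes and Fos. Among the control libraries, replicate 3 was lowest for 6 of the 10, which were Egr1, Egr2, Egr4, Nr4a1, Nr4a2 and Fos. Control replicate 3 was also the control library lowest in markers of pallial neurons, the cells of the neighbouring cortex. The summed value of 12 pallial markers was 564 there against 1521 to 2098 in the other controls, and cKO replicate 4, at 1042, was likewise below its group, whose other libraries held 1574 to 2108. Without control replicate 3 and cKO replicate 4, 6 of the 10 genes fell, as with all libraries.

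**Figure D3:**
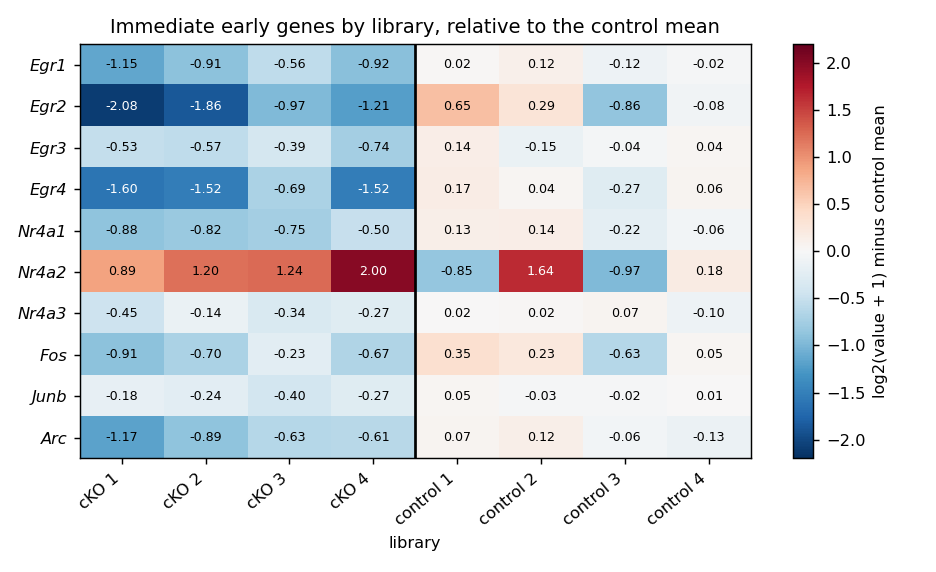
Log2(value + 1) of each gene (rows) in each library (columns, cKO left of the line and control right of it) minus the control mean of that gene, printed in each cell and shown by colour. Egr2 in cKO replicate 1 is the lowest cell, at -2.08, and Nr4a2 in cKO replicate 4 the highest, at 2.00.

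Most other genes of the same response did not pass the test, and neither did most genes of the whole table. Of 18 other immediate early transcription factor genes, 17 were tested, 2 fell and none rose (median log2 fold change 0.05). Among all genes tested, 3.78% fell and 2.87% rose, and the counts of all lists below stand beside these shares. In this list and in those of effectors, partners and upstream regulators, a larger share fell than among all genes. The lists were chosen with earlier results of these data known, so this is not independent support. Fosl2, which encodes a Fos relative, was at 1101, 1185, 1155 and 968 in the cKO, against 1684, 1437, 1460 and 1542 in the control (log2 fold change -0.47 ± 0.07, limma adjusted p = 0.00126). Npas4, a neuron-specific factor induced by calcium entry, was at 302, 313, 313 and 284 in the cKO, against 487, 487, 342 and 466 in the control (-0.54 ± 0.11, limma adjusted p = 0.00915). For both genes the groups did not overlap. Of those with the next smallest p, Klf6 had a log2 fold change of -0.19 ± 0.06 (limma adjusted p = 0.0626), Jun of 0.15 ± 0.05 (0.0988) and Atf3 of 0.65 ± 0.27 (0.215).

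Of 25 activity-regulated effector genes, 4 fell and none rose (median log2 fold change -0.09). Rasgrp1, an activator of Ras that is abundant in striatal neurons, had values of 380, 326, 327 and 277 in the cKO, against 1157, 1006, 1085 and 1203 in the control (log2 fold change -1.77 ± 0.09, limma adjusted p = 6.04e-07). Inhba, which encodes the activin beta A subunit, was at 449, 311, 444 and 356 in the cKO, against 754, 680, 772 and 847 in the control (-0.98 ± 0.11, limma adjusted p = 0.000258). In neither gene did the groups overlap. Bdnf, the neurotrophin gene, was at 2, 7, 3 and 3 in the cKO, against 7, 25, 14 and 11 in the control (-1.65 ± 0.42, limma adjusted p = 0.0369), and 10 of 20 alternatives ended its call, with adjusted p up to 0.178. Gadd45g fell by 0.24 on the log2 scale (limma adjusted p = 0.0348), a call lost in 11 of 21 alternatives. Vgf (0.18 ± 0.07), Dusp6 (-0.17 ± 0.07) and Dusp5 (-0.79 ± 0.34) did not pass.

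Among 11 partners, corepressors and related genes, 3 fell and none rose (median log2 fold change -0.02), 1 of them being Fosl2. Nab2, which encodes a corepressor that binds Egr proteins and is itself induced by them, was at 277, 233, 239 and 230 in the cKO, against 351, 341, 288 and 367 in the control (-0.46 ± 0.09, limma adjusted p = 0.0104). Rxrg, a retinoid X receptor gene of striatal neurons, was at 3379, 3139, 3738 and 2922 in the cKO, against 5013, 4249, 4547 and 4843 in the control (-0.50 ± 0.07, limma adjusted p = 0.00121). The retinoid X receptors RXRA and RXRG can pair with NR4A1 and NR4A2, and Rxra had a log2 fold change of 0.09 ± 0.06 (0.439). Nab1, the other Egr corepressor gene, had -0.16 ± 0.05 (limma adjusted p = 0.0801).

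Of 23 upstream regulators, 3 fell and none rose (median log2 fold change -0.04). Map2k1, which encodes the ERK kinase MEK1, was at 944, 925, 901 and 873 in the cKO, against 1481, 1253, 1400 and 1364 in the control (log2 fold change -0.59 ± 0.05, limma adjusted p = 3.89e-05). Mef2c, an activity-responsive MADS-box factor gene, fell by 0.29 on the log2 scale (limma adjusted p = 0.0123), and Mkl2, a coactivator gene of SRF, fell by 0.28 (0.0316). The Mef2c call was lost without the mean trend and without control replicate 3 and cKO replicate 4 together, and the Mkl2 call in 9 of 21 alternatives, with adjusted p of up to 0.109 and 0.158. Crtc3 (-0.15 ± 0.05), Camk2a (-0.12 ± 0.05) and Srf (-0.09 ± 0.04) did not pass. None of 8 heat shock and stress genes passed, and their summed value was 33085 to 38031 in the cKO and 34802 to 38852 in the control.

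**Figure D4:**
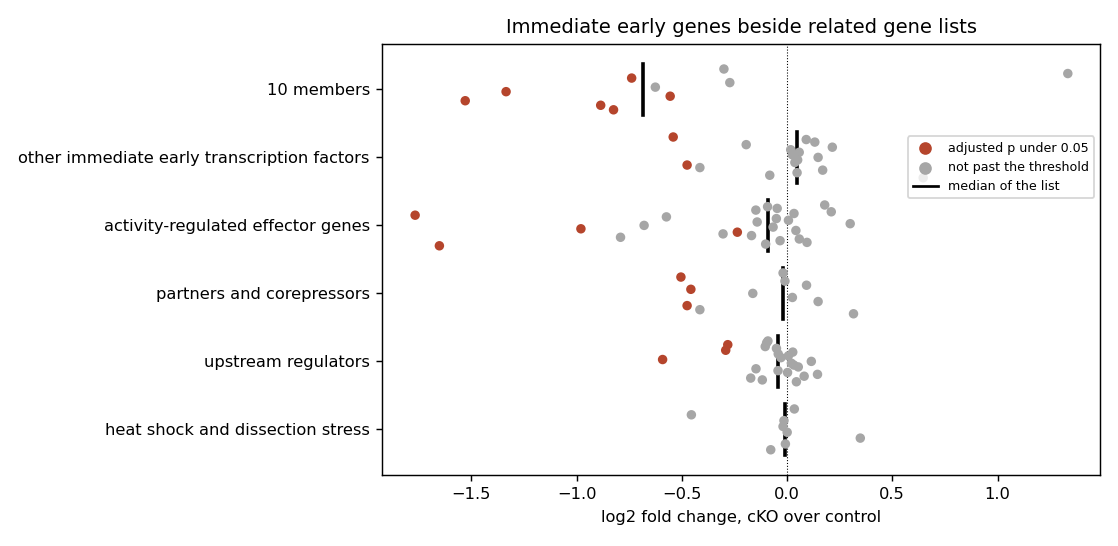
Log2 fold change, cKO over control, of the 10 genes and of each gene in 5 related lists (rows); coloured points passed at an adjusted p under 0.05 and black lines are list medians. The median of the 10 genes is -0.68, and those of the 5 lists lie between -0.09 and 0.05.

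Markers of several cell types moved with the same groups. Of 11 striatonigral (direct pathway) neuron genes, 6 fell and Isl1 alone rose, and their summed value was 19347 to 20939 in the cKO and 24343 to 28173 in the control. Tac1 had a log2 fold change of -2.93 ± 0.13, Slc35d3 of -2.05 ± 0.09 and Pdyn of -1.77 ± 0.08, the smallest p of the list. Drd1 (-0.20 ± 0.08, limma adjusted p = 0.217), Sox8 (-0.11 ± 0.06, 0.408), Eya1 (-0.22 ± 0.18, 0.587) and Ebf1 (-0.0066 ± 0.07, 0.976) did not pass. Of 8 cholinergic neuron genes 6 fell, with sums of 194 to 411 in the cKO and 552 to 871 in the control, and Chat was listed at 0 in cKO replicate 1. Of 12 microglial genes 10 rose, with sums of 3841 to 4604 in the cKO and 2464 to 2730 in the control, none of them at 0 in any library. Of 8 striatopallidal genes 2 rose, with sums of 20449 to 22207 in the cKO and 17747 to 19720 in the control. The 2 were Adora2a and Drd2, and the Drd2 call was lost in 12 of 21 alternatives (adjusted p up to 0.122), the authors' deposited table among them. Grik3, the largest value of that list (means of 8654 in the cKO and 7412 in the control), did not pass (limma adjusted p = 0.0566). Neither did Six3 (0.20 ± 0.06, 0.0589), Gpr6 (0.44 ± 0.18, 0.212) or Gpr52 (0.50 ± 0.26, 0.345). Sp9 (0.05 ± 0.05, 0.611) and Penk (0.02 ± 0.10, 0.964) differed little. The separation of these sums thus rests in part on genes that did not pass. The part of the shifts in cell type markers in the values of the immediate early genes was not tested.

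Of 12 endothelial and pericyte genes none passed, with sums of 8048 to 9626 in the cKO and 7931 to 8394 in the control. Of 12 pallial genes, Bhlhe22 alone rose, with sums of 1042 to 2108 in the cKO and 564 to 2098 in the control. Of 9 interneuron genes 3 fell and 1 rose, with sums of 21603 to 23669 in the cKO and 21583 to 23685 in the control. Gad1 and Gad2 made up most of these sums, with means of 7245.5 and 9357 in the cKO and 6842.5 and 9096 in the control. Neither passed, and the likeness of the sums says little about the rest of the list. The call of Nos1, 1 of the 3 that fell, was lost in 7 of 21 alternatives (adjusted p up to 0.092). Of 8 subplate and claustrum genes 7 were tested and 1 fell, Gnb4, at 1500 to 1707 in the cKO and 2279 to 2524 in the control. The summed value of those 7 was 2617 to 2888 in the cKO and 3362 to 3665 in the control, without overlap. Gnb4 made up the largest part of that sum, and the other 6 did not pass. Of these, Lxn, Ctgf and Ntng2 had higher means in the cKO, and Nxph4, Oprk1 and Synpo2 lower ones. The separation of the sums is therefore not a shift of the list as a whole. The part of such cells in the Nr4a2 values was not tested.

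The genes whose values across the 8 libraries were most like those of Egr1 were found by the root mean square difference of log2(value + 1), centred per gene, among 11722 genes with a mean of at least 100. Among the nearest were Emid1 (0.106), Arc (0.119), Kcnh1 (0.131) and Rem2 (0.147). Arc was thus the second nearest. For Nr4a1 they included Mtmr11 (0.0611), Col9a2 (0.089), Npy (0.089) and Mgst1 (0.0943). The measure includes the difference between groups, so each of these genes is also lower in the cKO.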

How the data were processed

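Poly(A) RNA of 8 LGE samples was measured, 4 cKO and 4 control, with groups and replicate numbers taken from the sample titles. STAR, featureCounts and edgeR with build mm10 are named in the submitters' processing notes without versions, and per the labels' protocols the library kit was directional. The deposited values named as raw are a score and not read counts, because the values show scaling and adjustment before rounding. Within the groups, 5711 genes of high mean (over 1000) showed next to no spread along 1 axis (0.000348 per gene on the log2 scale, against 0.0628 along the next smallest), the trace of a removed factor. SDs, SEs and p-values are therefore too small to a degree. The authors also deposited RPKM values, and their own log2 fold changes (sign: cKO over control) with p-values and adjusted p-values.

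The filter asked for a minimum value of 1 in any 4 libraries and kept 15698 genes, leaving out 7. Values were transformed to log2(value + 1) and compared with limma 3.58.1 in R 4.3.3, a moderated test with a mean trend, adjusted by Benjamini-Hochberg over all genes tested at a threshold of 0.05. Fold changes are on that log2 scale and so are understated for low genes. Errors are SE of a fold change or SD over 4 libraries. The p-values set the difference between groups against the spread of these samples within groups. The procedure was also run on simulated data with independent noise in each library. As these lack the removed factor, that run cannot show how far SEs and p-values are too small. Counts not being recoverable, count models and counting intervals were not used. The 10 genes and the gene lists were chosen with earlier results of these data known. The lists hold 13 groups. Genes named are the 10, Isl1, list members that passed or had the smallest p, and the 5 most like Egr1 and Nr4a1, of which some are not reported here. Prdx2 was named for its overlap with Junb after its value was seen. Gene positions are those of GENCODE on GRCm38, and windows are those of RefSeq on GRCm38.p6, read with Python 3.11.15. Alternatives were other pseudocounts, filters, scalings, priors and units, the removed factor as a covariate, the replicate block, the authors' comparison and leaving out libraries.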

Additional observations from a re-analysis of the deposited data

Results flagged for a closer look

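Egr4 in the cKO libraries was picked out because 1 library lay far from the other 3. cKO replicate 3 was at 31, against 16, 17 and 17 in the others, and the gap made up 0.933 of the range, above Dixon's critical value for 4 samples at 95%. Of 20 groups examined (10 genes in both genotypes) this was the only 1 past it, and chance passes about 1 in 20. The Egr4 call held without cKO replicate 3 (log2 fold change -1.55). As this was the cKO library nearest the control values, leaving it out could only widen the difference between the groups.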

How the results depend on the processing

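All 10 genes kept their direction under the 21 alternatives run. Egr1, Egr3, Egr4, Nr4a1 and Arc kept their calls in all 21, with adjusted p of at most 0.0212 (Egr4), and the Egr2 call was lost in 6. Leaving out 1 library gave 5 to 7 of the 10 genes fallen and 0 to 1 risen (Nr4a2 without control replicate 2), and over all genes 658 to 959 changed, 402 to 557 fallen and 256 to 414 risen, against 1045, 594 and 451. The low end of each was without control replicate 4. Without control replicate 3 and cKO replicate 4 together, 608 genes changed, 393 fallen and 215 risen. With the removed factor charged to the model, 290 genes rose and 459 fell, and 6 of the 10 genes fell. The causes were not tested.

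Deviations of equally numbered libraries correlated at 0.408, -0.167, -0.492 and -0.771. cKO replicate 1 alone correlated best with the control of its own number. With 4 libraries per group and a factor already removed, these correlations cannot settle whether equal numbers pair the samples. With the replicate block 1199 genes changed, 6 of the 10 genes fell and 1 rose (Nr4a2, adjusted p = 0.0377). By the authors' deposited table, 7 of the 10 fell. Depth is unknown, and Egr2, with values of 5 to 39, is the gene that low signal limits most.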

Other observations

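By the same measure, chosen for this gene after its values were seen, the genes most like Nr4a2 over the 8 libraries were the muscarinic receptor gene Chrm3 (0.572), Sertm1 (0.573), AW551984 (0.66), the proline transporter gene Slc6a7 (0.663) and the receptor phosphatase gene Ptprk (0.695). These distances are several times those found for Egr1 and Nr4a1. Chrm3 was at 154, 168, 160 and 206 in the cKO, against 37, 77, 49 and 53 in the control, and Sertm1 at 196, 307, 298 and 370 in the cKO, against 79, 168, 118 and 99 in the control. For both genes, as for Nr4a2, cKO replicate 4 was the highest cKO library and control replicate 2 the highest control library. Both genes were picked for likeness to Nr4a2 over these same libraries, so the shared extremes follow in part from that choice.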
